A study of Mus musculus with 6 samples.

Results

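Egr1 and 9 further immediate early transcription factor and response genes (Egr2, Egr3, Fos, Fosb, Jun, Junb, Nr4a1, Ier2 and Klf6) were followed in mouse B-ALL cells, a model of acute lymphoblastic leukaemia of the B lineage, after treatment with dihydroartemisinin (DHA), to which artemisinin antimalarials are converted in the body. They are 10 of the 22180 genes that the array annotation named singly. Each was read by 1 probe set (17349514 for Egr1, 17511130 for Ier2, 17285000 for Klf6, 17511259 for Junb and 17427312 for Jun), and all 10 lay above the intensity filter that 15526 genes passed. The genes were grouped by name, with earlier results on Egr1 and Klf6 from these arrays known, so those 2 differences are given as descriptions and not as independent support.

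The arrays held 3 samples of BCR-ABL-positive B-ALL cells treated with vehicle (dimethyl sulphoxide, DMSO) and 3 treated with 312 nM DHA, both for 4 h per the treatment protocol. Both groups carry BCR-ABL, a constitutively active tyrosine kinase that signals through the RAS and ERK cascade. The growth protocol names p185+ and p185T315I+ cells and the Arf-/- and p53-/- genotypes, but the sources used here do not say which of these was arrayed. The extraction protocol also mentions 2 h. T315I is a kinase mutation that makes BCR-ABL resistant to imatinib. No label states that the samples of a group were separate cultures, so p-values reflect only the spread between these arrays, and that spread may be technical. Values are log2 intensities of RNA from whole cultures, in which fewer cells with a transcript and less transcript per cell cannot be told apart.

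Immediate early genes are transcribed within minutes of a stimulus from factors already present in the cell, without new protein synthesis, and their RNAs are short-lived. ERK, JNK and p38 kinases act on serum response factor (SRF), its ETS-family partners of the ternary complex and CREB at the promoters. The products are mostly transcription factors. The EGR proteins are zinc-finger factors that bind GC-rich sites, FOS and JUN proteins pair through leucine zippers to form AP-1, NR4A1 is an orphan nuclear receptor, KLF6 is a Krüppel-like zinc-finger factor and IER2 is a small nuclear protein. In B-lineage cells they follow receptor and pre-receptor signalling, and several are also induced by stress kinases.

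RefSeq promoter windows (build GRCm38.p6) were held for 7 of the 10 genes (Egr2, Fos, Fosb, Jun, Junb, Nr4a1 and Klf6); Egr1, Egr3 and Ier2 were not among them. The 250 bases before the start are printed for Klf6 and Junb, whose values were higher with DHA, for Jun, whose values were lower, and for Fos, whose groups overlapped. Each is written 5′ to 3′ on the strand of the gene. Capitals mark TGACATCA, an AP-1-like site, and TGACG, the half-site of the cAMP response element (CRE). Both were chosen after the sequences were seen.
Klf6, chr13:5861239-5861488, plus strand: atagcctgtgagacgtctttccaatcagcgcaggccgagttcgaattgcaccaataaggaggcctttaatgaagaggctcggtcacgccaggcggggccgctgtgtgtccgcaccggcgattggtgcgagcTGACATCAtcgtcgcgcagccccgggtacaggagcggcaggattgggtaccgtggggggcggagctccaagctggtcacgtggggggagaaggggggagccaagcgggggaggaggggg
Junb, chr8:84978749-84978998, minus strand: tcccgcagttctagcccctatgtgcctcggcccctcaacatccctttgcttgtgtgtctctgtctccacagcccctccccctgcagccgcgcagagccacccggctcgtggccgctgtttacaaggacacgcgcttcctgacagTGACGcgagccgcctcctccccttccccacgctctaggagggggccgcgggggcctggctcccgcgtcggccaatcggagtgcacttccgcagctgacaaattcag
Jun, chr4:95052223-95052472, minus strand: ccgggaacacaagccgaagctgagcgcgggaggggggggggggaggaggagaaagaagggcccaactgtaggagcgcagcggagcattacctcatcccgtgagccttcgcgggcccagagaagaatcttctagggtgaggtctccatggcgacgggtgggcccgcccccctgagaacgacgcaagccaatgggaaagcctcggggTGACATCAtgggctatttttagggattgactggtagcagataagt
Fos, chr12:85473640-85473889, plus strand: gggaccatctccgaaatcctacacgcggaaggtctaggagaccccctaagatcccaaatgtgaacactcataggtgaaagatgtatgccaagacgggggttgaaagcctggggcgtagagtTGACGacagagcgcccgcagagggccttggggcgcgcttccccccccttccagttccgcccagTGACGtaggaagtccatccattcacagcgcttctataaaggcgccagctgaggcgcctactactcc
For Egr2, 30 bases that hold 1 of its CArG boxes, the site that SRF binds, are shown. No other gene of the 7 had one in the 250 bases before its start, and bases farther upstream were not searched. Capitals mark the CArG box and, on the reverse strand, the half-site TGACG.
Egr2, chr10:67537793-67537822, plus strand: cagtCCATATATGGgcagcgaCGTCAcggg

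Motifs were searched on both strands of the 250 bases before each start. The 27025 genes with such windows served as the background, with windows on chr18 left out of the search. TGACATCA was in the windows of 2 of the 7 genes, Jun (bases -45 to -38 from the start) and Klf6 (bases -119 to -112), and in 3.41% of all genes. TGACG, which is also part of the full CRE, was in 5 of the 7 (Egr2, Fos, Fosb, Junb and Nr4a1) and in 19.8% of all genes. A CArG box was in 1 of 7 (1.62% of all genes), and the EGR site GCGNGGGCG was in 2 of 7, Fosb and Nr4a1 (5.33%). No window of the 7 held the full CRE TGACGTCA (1.77% of all genes), TGANTCA (7.82%), the C/EBP-ATF element TGATGCAA (0.918%) or ACCGGAAGT, an ETS site (0.892%). A match says only that the letters are there. Jun and Klf6, which share TGACATCA, had differences of opposite sign after DHA, but neither passed the test over all genes described below. Whether the site has a part in either difference was not tested.

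Egr1 rose, and it was the 1 member of the 10 that passed the test over all genes. Ier2, Klf6 and Junb had every DHA value above every vehicle value, and Jun had every DHA value below, but none of these 4 passed. Egr2, Egr3, Fos, Fosb and Nr4a1 had overlapping groups. The treatment protocol gives only 4 h for these arrays, so a rise of such short-lived RNAs that had ended by then would not be seen. Over all 15526 genes, limma called 0.0902% changed (0.0837% up and 0.00644% down), with calls made at 0.05 after Benjamini-Hochberg adjustment. The 13 higher and 1 lower calls behind these shares depended on the processing. They became 41 and 11 with median centring, 52 and 11 with quantile normalization and 50 and 12 with trended, robust moderation. No gene at all was called on leaving out any single array but DHA replicate 2, with 8.73% to 11% of genes at an unadjusted limma p under 0.05 in those 5 fits, and without DHA replicate 2 the calls were 22 and 2. At an unadjusted limma p under 0.05 there were 5 of the 10 (4 higher, 1 lower), against 12% of all genes (5.94% higher and 6.08% lower). Groups were separate in 5 of the 10, against 15.8% of all genes (7.64% higher and 8.19% lower), and these were the same 5 genes (Egr1, Ier2, Klf6, Junb and Jun). The median log2 fold change was 0.10 over the 10 genes and 0.0027 over all genes. As the genes were chosen with results known, these shares are not a test of the group.

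**Figure D1:**
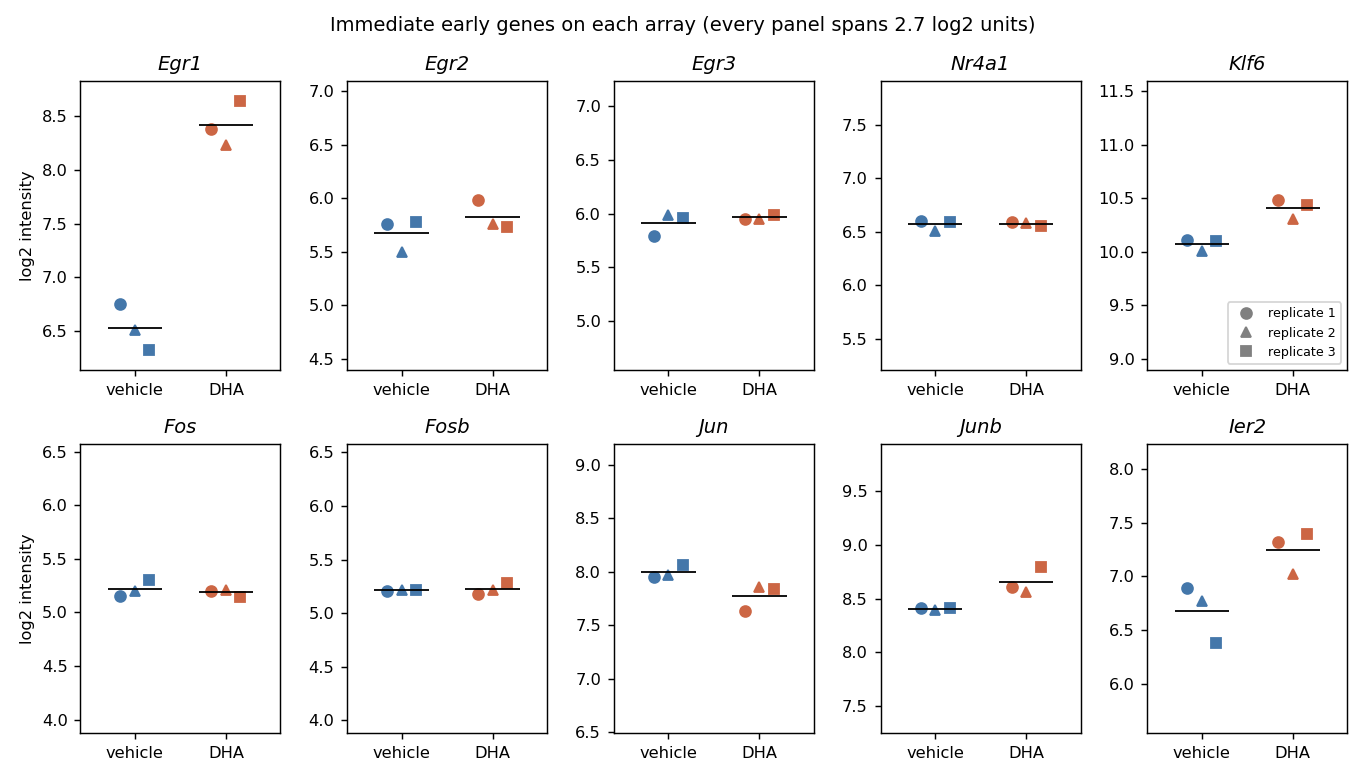
Log2 intensity of each gene on the 3 vehicle arrays (blue) and the 3 DHA arrays (orange), with the group mean as a bar and a marker shape for each replicate; every panel spans the same number of log2 units around its own values. Egr1 is the gene with the widest gap between groups, while Fos, Fosb, Egr3 and Nr4a1 lie almost flat.

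Among the EGR genes, Egr1, which encodes the founding zinc-finger factor of the family, measured 6.75, 6.51 and 6.32 with vehicle and 8.38, 8.23 and 8.64 with DHA. The lowest DHA value was 1.49 above the highest vehicle value, whereas vehicle values spanned 0.43 and DHA values 0.41. The means were 6.52 ± 0.21 and 8.42 ± 0.21 (SD, n = 3 per group), a 3.72-fold rise with a 95% interval of 2.96 to 4.68 (limma adjusted p = 0.0225). It was the third-largest rise of all genes tested. Leaving out any array but DHA replicate 2 ended the call at a nearly unchanged difference. The log2 fold change was 2.01, 1.89 and 1.79 without vehicle replicate 1, 2 or 3, with limma adjusted p of 0.0822, 0.239 and 0.116. It was 1.91 and 1.79 without DHA replicate 1 or 3, with limma adjusted p of 0.280 and 0.226. Without DHA replicate 2 it was 1.99 (limma adjusted p = 0.0319). Each of these fits had 1 array fewer to estimate the spread.

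Egr2 and Egr3 encode relatives of EGR1 that bind similar GC-rich sites, and both take part in lymphocyte activation and tolerance. Egr2 measured 5.76, 5.50 and 5.77 with vehicle and 5.99, 5.76 and 5.73 with DHA. DHA replicate 1 alone lay above the vehicle arrays. The log2 fold change was 0.15 with a 95% interval of -0.092 to 0.39 (limma adjusted p = 0.604). Egr3 ranged from 5.79 to 5.98 with vehicle and from 5.95 to 5.99 with DHA, with a log2 fold change of 0.052 (95% interval -0.098 to 0.20; limma adjusted p = 0.781). The intervals run to at most 1.31-fold for Egr2 and 1.15-fold for Egr3, below the 2.96-fold lower bound of Egr1. These intervals hold the spread between arrays and not the compression of fold changes that dim probe sets show on such arrays. Egr4, the remaining family member, averaged 4.95 with vehicle and 4.88 with DHA (log2 fold change -0.070, SE 0.058); it and the other family members outside the naming rule were chosen after their values were seen.

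Klf6, which binds GC-rich promoter elements, measured 10.11, 10.01 and 10.10 with vehicle and 10.48, 10.30 and 10.44 with DHA. Its groups were separate with a gap of 0.19. The fold was 1.26 with a 95% interval of 1.14 to 1.40 (log2 fold change 0.34, SE 0.063; limma adjusted p = 0.126 and unadjusted p = 0.00121). Of all genes, 0.927% had a smaller p. Leaving out 1 array at a time kept the difference between 0.30 and 0.39, with the call in none of the 6 fits.

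The orphan nuclear receptor gene Nr4a1 ranged from 6.51 to 6.61 with vehicle and from 6.56 to 6.59 with DHA. The log2 fold change was 0.0077 with a 95% interval of -0.10 to 0.12 (limma adjusted p = 0.966). Its relative Nr4a2 averaged 6.90 and 7.06 (log2 fold change 0.16, SE 0.060; limma adjusted p = 0.368), and Nr4a3 averaged 5.23 and 5.22. None of the 3 passed the test.

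**Figure D2:**
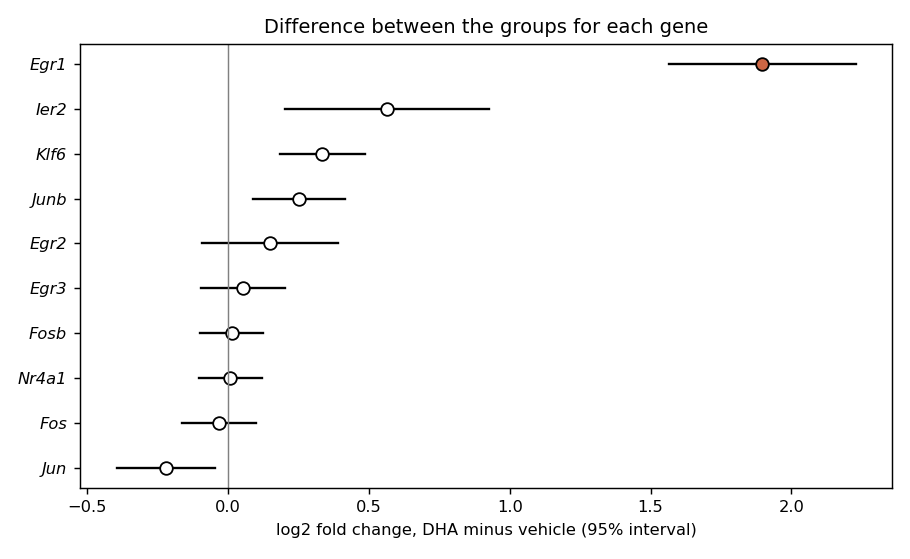
Log2 fold change of each gene (DHA minus vehicle, n = 3 per group) with its 95% interval from limma, ordered by size; the filled point passed the test over all genes. The interval of Egr1 (1.57 to 2.23) lies above all others, those of Ier2, Klf6 and Junb lie above 0, that of Jun lies below 0, and the other 5 cross 0.

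Of the AP-1 subunits, Fos and Fosb had flat values at 4 h, with earlier times not measured, and the JUN genes differed in sign among themselves. Fos, which encodes a subunit that binds DNA only as a partner of a JUN protein, measured 5.15, 5.20 and 5.30 with vehicle and 5.20, 5.21 and 5.15 with DHA. The groups overlapped, and the 95% interval of the difference reached from 0.894-fold to 1.07-fold (limma adjusted p = 0.854). Fosb, its close relative, ranged from 5.21 to 5.22 with vehicle and from 5.18 to 5.28 with DHA (0.934-fold to 1.09-fold; limma adjusted p = 0.937). Both probe sets were dim, with means 0.69 and 0.70 above the filter on the log2 scale. Fosl2 averaged 6.35 with vehicle and 6.55 with DHA (log2 fold change 0.20, SE 0.081; limma adjusted p = 0.402 and unadjusted p = 0.0449). Fosl1 was not analysed here.

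Jun encodes c-Jun, the AP-1 subunit that JNK phosphorylates. It measured 7.95, 7.97 and 8.06 with vehicle and 7.63, 7.85 and 7.84 with DHA, so that the groups were separate by 0.098. The log2 fold change was -0.22 with a 95% interval of -0.40 to -0.046 (limma adjusted p = 0.321 and unadjusted p = 0.0206). DHA replicate 1 was the lowest array, and without it the difference was -0.15.

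Junb encodes a JUN protein with weaker activity on many AP-1 targets. It measured 8.41, 8.40 and 8.41 with vehicle and 8.61, 8.56 and 8.80 with DHA, separate by 0.15. The fold was 1.19 with a 95% interval of 1.06 to 1.33 (log2 fold change 0.25, SE 0.069; limma adjusted p = 0.244 and unadjusted p = 0.00873). The vehicle values, 2 of them equal, spanned only 0.012, while the DHA values spanned 0.24. Jund, the remaining JUN gene, averaged 9.62 ± 0.19 on the vehicle and 9.28 ± 0.066 on the DHA arrays (SD, n = 3 per group; log2 fold change -0.34, limma adjusted p = 0.260). Jun and Jund thus had lower DHA values and Junb higher ones, and the difference between these genes was not tested.

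Ier2, which encodes a nuclear protein with few known targets, measured 6.89, 6.77 and 6.38 with vehicle and 7.32, 7.02 and 7.40 with DHA. The groups were separate by 0.13, although the vehicle arrays alone spanned 0.51. The fold was 1.48 with a 95% interval of 1.15 to 1.90 (log2 fold change 0.57, SE 0.15; limma adjusted p = 0.240 and unadjusted p = 0.00794). Vehicle replicate 3 was the lowest array for Ier2, and without it the difference was 0.42. Vehicle replicate 3 and DHA replicate 2 share a number in their titles, whose meaning is not given, and with a term for it Ier2 passed (limma adjusted p = 0.0441).

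**Figure D3:**
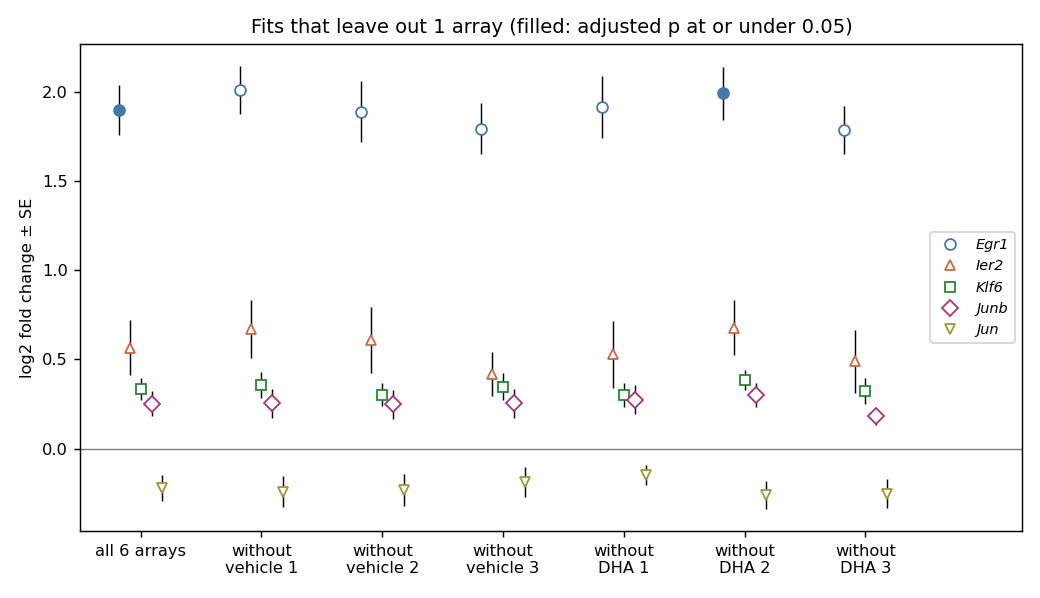
Log2 fold change with its SE for the 5 genes with separate groups, fitted on all 6 arrays and without each array in turn; filled markers passed the test over all genes. Egr1 stays between 1.79 and 2.01 and is filled in 2 fits, and the other 4 genes have open markers throughout; as the groups are separate, leaving out an array cannot turn a sign.

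The arrays stood in a similar order in the 5 separate genes. DHA replicate 2 was the DHA array nearest the vehicle mean in 5 of 5, and vehicle replicate 1 was the vehicle array nearest the DHA mean in 5 of 5, tied with vehicle replicate 3 for Junb. The leading digit of the title number, 2 or 4, is also unexplained and cuts across the groups. Among arrays with digit 2, the Egr1 difference was 1.76 (2 vehicle, 1 DHA), and among those with digit 4 it was 2.12 (1 vehicle, 2 DHA). For Ier2 these differences were 0.49 and 0.83, for Klf6 0.42 and 0.27, for Junb 0.21 and 0.27 and for Jun -0.33 and -0.21. The signs within both digits follow from the separate groups and add nothing to them. For Egr2 the difference was 0.36 within digit 2 and -0.029 within digit 4. The part of these codes in the results was not tested beyond the fits with a term for them.

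The genes whose pattern over the 6 arrays was most like that of Egr1 were found among genes that also differed between the groups. Among 87 other genes that ranged over at least 1 log2 unit, the highest Pearson correlations with Egr1 were those of Sesn2 (0.996), Ddit3 (0.994), Nupr1 (0.993), Cd69 (0.990) and Slc1a4 (0.989). Sesn2 encodes an inhibitor of mTORC1 signalling, Ddit3 the transcription factor CHOP, Nupr1 a stress-induced chromatin regulator, Cd69 a lymphocyte activation marker and Slc1a4 a neutral amino acid transporter. The 6 points are the same arrays and fall into the 2 groups, so any gene that rose strongly gives a high value and the correlation is a description. Within the vehicle group, Egr1, Sesn2, Ddit3, Nupr1 and Slc1a4 were highest on replicate 1 and lowest on replicate 3. Sesn2 for example measured 6.81, 6.51 and 6.28 with vehicle and 8.51, 8.17 and 8.51 with DHA. Cd69 was also lowest on vehicle replicate 3 but highest on vehicle replicate 2. These genes were picked for likeness to Egr1 on the same arrays, so a shared order within a group is partly built in. Of the other immediate early genes named above, Klf6 (0.949), Junb (0.913) and Ier2 (0.907) had the highest correlations with Egr1, and Jun (-0.821) the lowest.

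**Figure D4:**
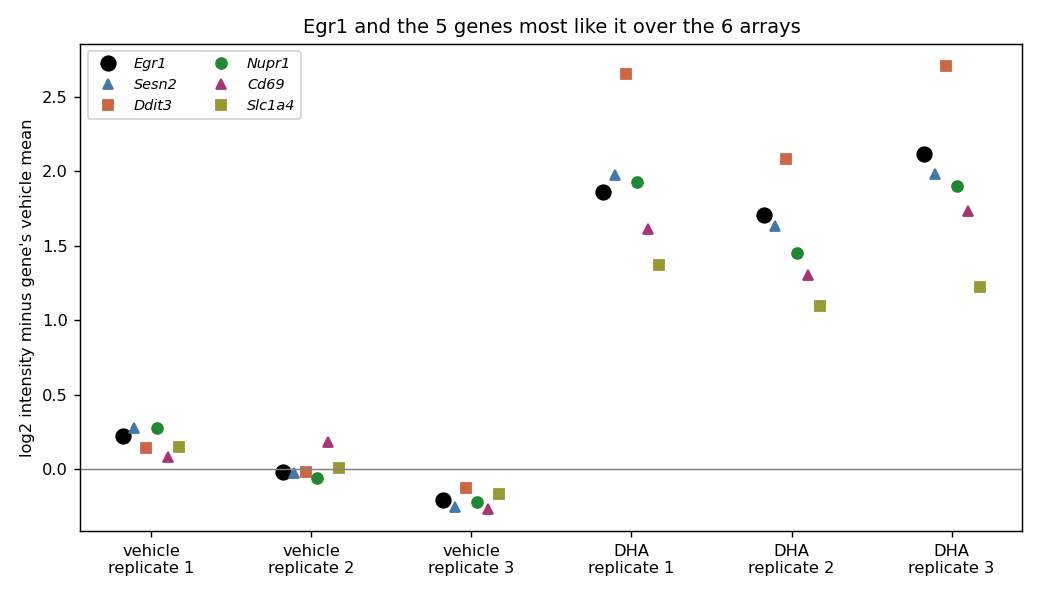
Log2 intensity of Egr1 (black) and the 5 genes most like it on each array, minus the mean of the gene on the vehicle arrays. All 6 genes lie below 0.5 on the vehicle arrays and above 1 on the DHA arrays, and DHA replicate 2 holds the lowest DHA value of each.

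Beyond these 10, a list of 36 further immediate early genes gave 33 that could be tested, of which none passed the limma test over all genes in either direction. At an unadjusted limma p under 0.05, 6 were higher and 3 lower, against 5.94% and 6.08% of all genes. The list median was 0.037. Rgs2, a brake on G-protein signalling, averaged 10.22 ± 0.14 on the vehicle and 10.69 ± 0.071 on the DHA arrays (SD, n = 3 per group; limma adjusted p = 0.105). Plk3, a stress-responsive kinase, averaged 7.07 and 7.35 (limma adjusted p = 0.195). Rgs1, another G-protein brake, averaged 4.91 and 5.66 (limma adjusted p = 0.237), close to the filter. In all, 18 of the 33 had a log2 fold change above 0, beside 51.2% of all genes.

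Proteins with leucine zippers related to FOS and JUN share or compete for their partners and sites. Of 20 tested genes of this kind, 2 rose and none fell, against 0.0837% and 0.00644% of all genes. The list was chosen with earlier results of these data known, so these shares are not a test of it. Ddit3 rose from 7.48 ± 0.13 to 9.96 ± 0.35 and Atf3 from 6.75 ± 0.22 to 8.48 ± 0.29 (SD, n = 3 per group; limma adjusted p of 0.0225 and 0.0355). Both calls ended on leaving out any single array but DHA replicate 2. The log2 fold change of Ddit3 then lay between 2.37 and 2.68 over the 6 fits, with limma adjusted p from 0.0822 to 0.280 where the call was lost. That of Atf3 lay between 1.62 and 1.90, with limma adjusted p from 0.0859 to 0.302. ATF3 is itself an immediate early factor that pairs with JUN proteins. Jdp2, a repressor that dimerises with JUN, measured 7.25, 7.08 and 7.03 with vehicle and 8.32, 7.86 and 8.23 with DHA. Its log2 fold change was 1.02 (SE 0.13; limma adjusted p = 0.0636), and the groups were separate. Atf4, which encodes the main effector of the integrated stress response, measured 9.12, 9.09 and 8.97 with vehicle and 9.64, 9.46 and 9.56 with DHA (limma adjusted p = 0.0660). At an unadjusted limma p under 0.05, 8 of the 20 were higher and 1 lower, against 5.94% and 6.08% of all genes. The list median was 0.099.

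The factors upstream of immediate early promoters did not pass the limma test. Of 13 tested genes for SRF, its partners and the CREB factors, none was called. At an unadjusted limma p under 0.05 (12% of all genes) there were 2, both higher. These were the acetyltransferase genes Ep300 (log2 fold change 0.15) and Crebbp (0.18), with limma adjusted p of 0.328 and 0.331. Crtc3 (0.16) and Crtc2 (0.19), coactivators of CREB, came next. The list median was 0.081, with 8 of 13 above 0, beside 51.2% of all genes. In the RAS to ERK cascade, none of 13 tested genes was called. At an unadjusted limma p under 0.05 (12% of all genes) there was 1. This was Gab2, an adaptor that binds BCR-ABL through GRB2, which averaged 8.86 with vehicle and 9.37 with DHA (limma adjusted p = 0.126). Braf (0.13), Sos2 (0.14) and Map2k1 (-0.11) followed, and 8 genes of this list were not analysed here. The median of the RAS to ERK list was -0.0072, with 6 of 13 above 0.

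Of 16 tested genes of the JNK and p38 cascades, none was called by limma. At an unadjusted limma p under 0.05 there were 3 lower and 1 higher, against 6.08% and 5.94% of all genes. The p38 target kinase gene Mapkapk2 averaged 9.72 with vehicle and 9.42 with DHA. Map2k3, which encodes a kinase that acts on p38, averaged 9.13 and 8.90, and Map2k4, which encodes a kinase of JNK, 9.01 and 8.76. The limma adjusted p were 0.131, 0.137 and 0.250. Map3k1, at the head of the JNK cascade, had a log2 fold change of 0.17. The list median was -0.054, with 4 of 16 genes above 0, beside 51.2% of all genes. Kinase activity was not measured by these arrays.

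ERK feedback inhibitors are themselves induced with immediate early genes. None of 11 tested was called by limma. At an unadjusted limma p under 0.05 (12% of all genes) there were 2, Spry4 (log2 fold change 0.55, limma adjusted p = 0.259) and Dusp4 (0.47, limma adjusted p = 0.308). Both had separate groups with higher DHA values. The list median was 0.052, with 9 of 11 above 0, beside 51.2% of all genes.

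Of the EGR corepressors and genes described as EGR targets, 1 of 10 tested rose and none fell, against 0.0837% and 0.00644% of all genes. As this list too was chosen with earlier results of these data known, the shares do not test it. Cd69 rose from 9.26 ± 0.24 to 10.81 ± 0.22 (SD, n = 3 per group; limma adjusted p = 0.0355). This call too ended on leaving out any single array but DHA replicate 2, with log2 fold changes from 1.42 to 1.67 over the 6 fits and limma adjusted p from 0.162 to 0.302 where it was lost. Cd69 is known as a target of several factors, AP-1 included. Nab2, a corepressor that EGR1 itself induces, measured 7.19, 6.96 and 6.84 with vehicle and 6.99, 7.01 and 7.22 with DHA, so that the groups overlapped. It was chosen after its values were seen. Tnf averaged 10.70 with vehicle and 10.30 with DHA (log2 fold change -0.40, limma adjusted p = 0.136), Tgfb1 had -0.18 and Cd44 -0.10. The list median was -0.031, with 3 of 10 above 0, beside 51.2% of all genes.

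**Figure D5:**
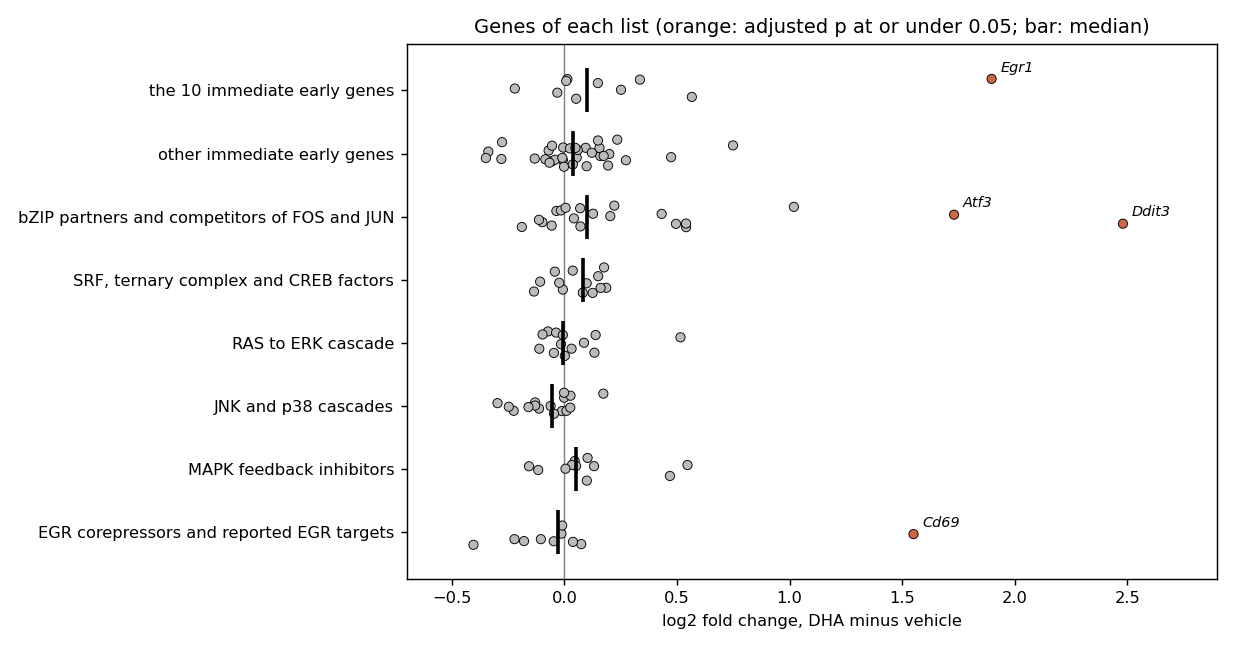
Log2 fold change (DHA minus vehicle) of every tested gene, by list, with the list median as a bar; orange points passed the test over all genes and are named. Egr1, Atf3, Ddit3 and Cd69 are the only orange points, and most other genes lie within 0.5 of 0.

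The cells carried the B-lineage RNAs their label calls for, with Cd79a at 12.70 and 12.72, Pax5 at 10.85 and 10.95 and Ebf1 at 11.70 and 11.83 (vehicle and DHA means), while Vpreb1 was dim at 4.78 and 4.79. Cd79a, Pax5, Vpreb1 and the markers listed below as under the filter were chosen after their values were seen. None of the 15 tested B-cell precursor markers was called by limma, but 3 had separate groups with lower DHA values and an unadjusted limma p under 0.05. Over all genes, 8.19% were separate and lower, and 6.08% were lower at that p. Rag2, a recombinase subunit, averaged 7.72 with vehicle and 7.19 with DHA (log2 fold change -0.53, SE 0.15; limma adjusted p = 0.253). Cd24a, a surface marker, had a log2 fold change of -0.16 and Igll1, a surrogate light chain gene, of -0.12, with limma adjusted p of 0.320 and 0.363. Another 2 of the 15 had separate groups with higher DHA values, against 7.64% of all genes. The list median was 0.010, with 8 of 15 above 0, beside 51.2% of all genes. The mean level of this list per array lay at 10.454 to 10.515 with vehicle and 10.416 to 10.453 with DHA. These ranges did not overlap but nearly met. Markers of other cells, which can hold immediate early RNA, passed the filter for 6 of 12 T and NK cell, 6 of 12 myeloid, 5 of 10 erythroid and megakaryocyte and 8 of 10 stromal and endothelial genes. Cd3e, Cd8a, Ly6g, S100a8, Adgre1, Pf4 and Dcn were among those under it. Others were well above it, with Cd2 at 9.45 and 9.41 and Pecam1, an endothelial adhesion gene that leukocytes also express, at 9.34 and 9.52 (vehicle and DHA means). Cd2 stood apart from the other T and NK cell markers, of which the brightest was Nkg7 at 6.02 and 6.20. Pecam1 had separate groups (log2 fold change 0.18, SE 0.047; limma adjusted p = 0.220 and unadjusted p = 0.00625). None was called, and at an unadjusted limma p under 0.05 (12% of all genes) there were 1, 0, 0 and 2 of the tested ones. Their mean levels per array lay at 5.89 to 5.96 with vehicle and 5.91 to 5.99 with DHA for T and NK cells. For myeloid cells they lay at 4.84 to 4.97 and 4.92 to 4.97, and for stromal and endothelial cells at 5.77 to 5.86 and 5.82 to 5.89. For erythroid cells and megakaryocytes they lay at 5.34 to 5.38 and 5.39 to 5.46, the 1 list of the 4 whose arrays did not overlap. The part of the B-lineage markers and of these cells in the results was not tested.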

How the data were processed

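Total RNA was converted to biotin-labelled cRNA for Affymetrix arrays, per the labels' protocols. The deposited values are log2 intensities, 1 per probe set and sample, summarised with RMA (Partek version 6.6), per the submitters' processing notes; the settings used are not stated there. The usual RMA procedure equalises distributions between arrays, and dim probe sets give compressed fold changes. The 41345 probe sets had no missing values, array medians lay between 5.25 and 5.31, and correlations between arrays between 0.9925 and 0.9947.

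Samples were grouped by the agent in the labels, and replicate numbers follow accession order. Probe sets annotated with 1 gene (23521) were renamed through the Entrez identifier to RefSeq (GRCm38.p6), which matched 23328. The brightest probe set by 6-array mean stood for a gene, and genes whose mean lay below the 30th percentile (4.52) were left out. The groups were compared in limma version 3.58.1 under R version 4.3.3 (default empirical Bayes, two-sided, 4 residual degrees of freedom), with Benjamini-Hochberg adjustment over 15526 genes and calls at 0.05. Intervals are 95% and unadjusted for the number of genes. The number of arrays, 3 per group, limits the precision, and an exact permutation test could not go below 0.1. The procedure was tested on simulated data.

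Named genes were all 10 genes of the group, up to 4 genes of each list with the smallest p, any called gene of a list and the 5 most like Egr1; any other gene is marked in the text as picked with its values known. The genes and lists were chosen with earlier results of these data known. Protein identities, listed at first, were not computed, as no protein sequences were used here. Alternatives covered left-out arrays, filters, normalization, probe set choice, moderation, array weights, title-code terms and thresholds.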

Additional observations from a re-analysis of the deposited data

How the results depend on the processing

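No paired analysis was possible because only 1 title number occurs in both groups and replicate numbers came from accession order. Leaving out both arrays with that number was chosen after seeing the data. The count of called genes among the 10, which was 1 (Egr1), lay between 0 and 1 when single arrays were left out. It was 0 with every probe set tested, 0 without moderation, 0 at an adjusted p of 0.01 and 0 without both arrays of the shared title number, with 4 or 5 of the 10 at an unadjusted p under 0.05 in each limma or unmoderated fit. It was 2 with a term for the shared title number, as Ier2 passed. Some of these settings use fewer arrays or test more features by design; for the others the cause was not tested. With other filters, normalizations, probe set choices, array weights, the leading-digit term and an adjusted p of 0.1, the count stayed at 1. Over all genes, the 13 higher and 1 lower calls became 47 and 15 with the 50th percentile filter, 37 and 4 with the shared title number as a term, 5 and 0 without a filter, 2 and 0 with every probe set tested, 1 and 0 without moderation and none by limma without both arrays of that number (10.1% of genes at an unadjusted p under 0.05). The Egr1 log2 fold change lay between 1.79 and 2.01 when single arrays were left out. It lay from 1.89 to 1.94 in 12 further settings, 10 of which called it. The fit with every probe set tested, which did not call Egr1, is not among these 12. Signs of small differences reversed on leaving out 1 array, with ranges of -0.0093 to 0.088 for Egr3, -0.065 to 0.0095 for Fos, -0.016 to 0.036 for Fosb and -0.022 to 0.026 for Nr4a1. The Fosb difference was also -0.00021 with the leading-digit term. Fos and Fosb lay under the 50th percentile filter and have no value there. The dim signal of the Fos and Fosb probe sets limits what can be said of small changes there.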

Other observations

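Equal values between arrays were common. Of the 15526 tested genes, 5466 (35.2%) had the same value, to all printed digits, on at least 2 of the 6 arrays, and so did 5 of the 10 genes described above. Junb had 8.41 on vehicle replicates 1 and 3, Egr2 had 5.76 on vehicle replicate 1 and DHA replicate 2, Egr3 had 5.95 on DHA replicates 1 and 2, Fos had 5.20 on vehicle replicate 2 and DHA replicate 1, and Fosb had 5.21 on vehicle replicate 2 and DHA replicate 2. The SD of 0.0071 for Junb with vehicle and of 0.019 for Egr3 with DHA each rest on such a pair. The source of the equal values was not tested.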
